A study of Mus musculus with 15 samples.

Results

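Lilrb4, Lair1 and Cd22 encode inhibitory receptors that carry an immunoreceptor tyrosine-based inhibitory motif (ITIM) in their cytoplasmic tail, and Ptpn6 encodes SHP-1, a tyrosine phosphatase that such receptors recruit. These 4 genes were chosen by name among the 547 endogenous genes of a mouse panel for inflammation and immunity. Their RNA levels were followed in microglia after controlled cortical impact (CCI), a contusion of the exposed cortex by a piston. Microglia were sorted by flow cytometry from dissociated mouse brain as cells with high CD11b and low to intermediate CD45, and total RNA was counted with nCounter, which counts RNA molecules hybridised to a coloured barcode for each gene, without amplification. All groups were adult male C57BL6J mice with no transgene or drug. There were 4 sham samples, taken 2 days after the sham procedure according to the methods, and 4, 4 and 3 samples of injured mice at 2, 14 and 60 days post-injury (dpi), so sham mice of 14 or 60 days were not part of the comparison, and the later groups were not assigned by randomization.

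An ITIM receptor is silent until its tyrosine is phosphorylated, usually by a Src family kinase after ligand binding. SHP-1 then docks on the motif through its SH2 domains and removes phosphate from proteins of the activating pathways, such as those that start at the adaptors Tyrobp and Fcer1g and run through the kinase Syk. In microglia and other myeloid cells such brakes act on phagocytosis and cytokine release, and Cd22 has been linked to reduced phagocytosis by microglia of old mice.

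The probes counted RNA only and did not report surface protein or phosphorylation. The Lilrb4 probe was designed on a transcript now named Lilrb4a, the ITIM-bearing receptor also called gp49B. The adjacent gene Lilr4b (gp49A) is a close paralog that lacks the ITIM, and the share of its RNA that this probe may also count was not tested. Counts were scaled by the positive spike-in controls and the housekeeping genes of each sample, and are called normalized counts. A count was taken as above background if it exceeded a limit set in each sample from its 8 negative control probes, at 2 SD over their mean. Total endogenous counts per sample ran between 66905 and 280528, and the background limit was 25.0 to 34.0 counts in the 12 samples of sham, 2 dpi and 14 dpi, which shared 1 run. The 3 samples at 60 dpi came from another run with a limit of 57.1 to 67.7 counts, where 1 negative probe alone read 50 to 72 counts, against 7 to 12 counts in the first run. Run and time at 60 dpi cannot be told apart. All 10 measured markers of microglia and macrophages, among them Itgam, Cx3cr1 and Csf1r, were above background in all 15 samples. The paper gives its group sizes in mice, and they match the sample numbers, but nothing in the labels ties a sample to a separate mouse. Part of the spread behind each p-value may therefore be technical. In bulk RNA of sorted cells fewer cells of a type and less RNA per cell cannot be told apart.

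The 4 genes each followed a course of their own. Lilrb4 was higher than sham at 2 and 14 dpi and was not above background at 60 dpi. Lair1 was lower than sham at all 3 times. Cd22 was close to background in sham, at 2 dpi and at 60 dpi, and was higher than sham at 14 and 60 dpi. Ptpn6 varied least, with a lower level at 2 dpi than in sham under the housekeeping scaling. All 4 genes passed the filter on low counts, which asked for a level above background in at least 3 of the 15 samples and left 359 genes to test.

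**Figure D1:**
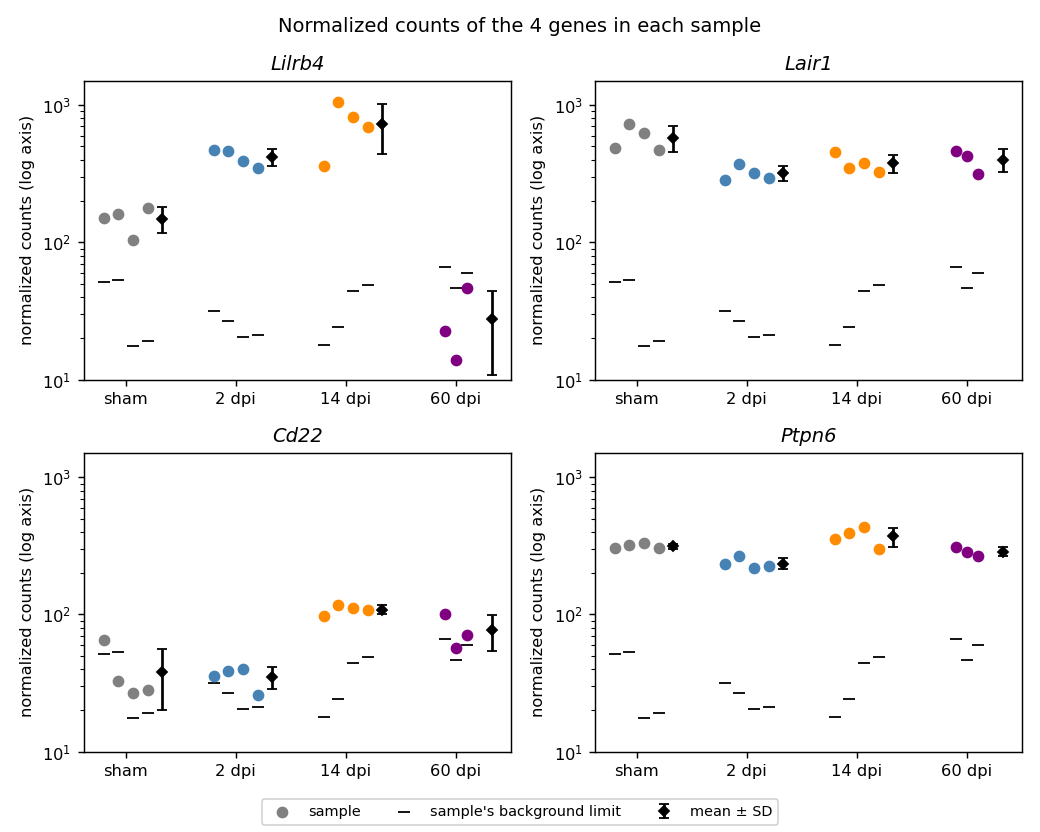
Normalized counts (log axis) of Lilrb4, Lair1, Cd22 and Ptpn6 in each sample of sham, 2 dpi, 14 dpi and 60 dpi, with the mean ± SD of each group as a black diamond and each sample's own background limit as a short dash. The 3 Lilrb4 values at 60 dpi lie under their limits, and 1 Cd22 value in sham, 32.8, lies under its own.

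Against the panel as a whole, 3 of the 4 genes passed an edgeR adjusted p of 0.05 at 2 dpi against sham (1 higher, 2 lower), where 35.7% of the 359 tested genes did, 7.24% higher and 28.4% lower. At 14 dpi 3 passed (2 higher, 1 lower), where 25.6% of tested genes did, 21.4% higher and 4.18% lower. At 60 dpi 3 passed (1 higher, 2 lower), where 36.5% of tested genes did, 25.3% higher and 11.1% lower. Samples of injured and sham mice did not overlap for 3 of the 4 genes at 2 dpi (28.7% of tested genes, 4.18% all higher and 24.5% all lower), for 3 at 14 dpi (20.9%, with 16.7% all higher and 4.18% all lower) and for 2 at 60 dpi (35.7%, with 23.7% all higher and 12% all lower). Lilrb4 ranked 8 of 359 by size of the log2 fold change at 2 dpi and 6 at 14 dpi, and Cd22 ranked 18 at 14 dpi. The 4 genes were few and were chosen by name, so these shares describe the panel and test nothing about the set.

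Lilrb4, the receptor with the widest range, had 151, 161, 105 and 178 normalized counts in the sham samples. It had 471, 460.0, 395 and 351 at 2 dpi. At 14 dpi it had 358, 1048, 816 and 690.1. Every sample at 2 and at 14 dpi was thus above every sham sample, while the lowest 14 dpi sample lay inside the 2 dpi range. At 60 dpi the same probe gave 22.4, 13.9 and 46.3 normalized counts, that is 21, 17 and 52 raw counts, and none of the 3 samples passed its background limit. With the limit taken without the negative probe that read high in that run, 1 of the 3 passed.

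The group means for Lilrb4 were 149 ± 31.3 in sham, 419 ± 56.5 at 2 dpi, 728 ± 288 at 14 dpi and 27.6 ± 16.8 at 60 dpi (SD, n = 4, 4, 4 and 3). Lilrb4 rose 2.83-fold at 2 dpi over sham (log2 fold change 1.50, SE 0.32), with an adjusted p of 0.00325 by edgeR's quasi-likelihood test with Benjamini-Hochberg adjustment. The rise at 14 dpi over sham was 4.91-fold (log2 fold change 2.30, SE 0.33, edgeR adjusted p = 0.000127). On the log2 of the values as the authors normalized them, limma gave nearly the same sizes, 1.49 and 2.30, with adjusted p of 0.147 and 0.0540.

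At 60 dpi Lilrb4 had only an upper bound. With each 60 dpi sample set at its background limit, where that was the higher value, Lilrb4 was at least 2.57-fold lower at 60 dpi than in sham, and the edgeR adjusted p for the measured counts was 0.000254. By the same bound it was at least 7.27-fold lower than at 2 dpi and at least 12.6-fold lower than at 14 dpi, with edgeR adjusted p of 3.28e-06 and 7.56e-07. All 3 samples at 60 dpi were under all 12 samples of the other groups.

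Since the 60 dpi samples shared a run of their own, the loss of signal was set beside the other genes of the panel. Of the 242 genes above background in all 12 samples of the first run, 226 were above background in all 3 samples at 60 dpi and 8 were in none of them, which is 3.31%. Lilrb4 had the highest signal of the 8 in the first run, with a mean of 15.4 times the limit there and 0.468 times the limit at 60 dpi. The other 7 were Hif1a, Icam5, Psmb7, Itga5, Casp1, Cfb and Ikzf4, and Hif1a, a subunit of the oxygen-sensing transcription factor, came next with 9.46 times the limit in the first run. With the limit set without the high negative probe, 3 genes remained in no 60 dpi sample, out of 239. Lilrb4 was not among these 3, since 60 dpi replicate 3 passed that limit. In the other direction, 160 genes were above background in no sample of the first run and 1 of them was above it in all 3 samples at 60 dpi.

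**Figure D2:**
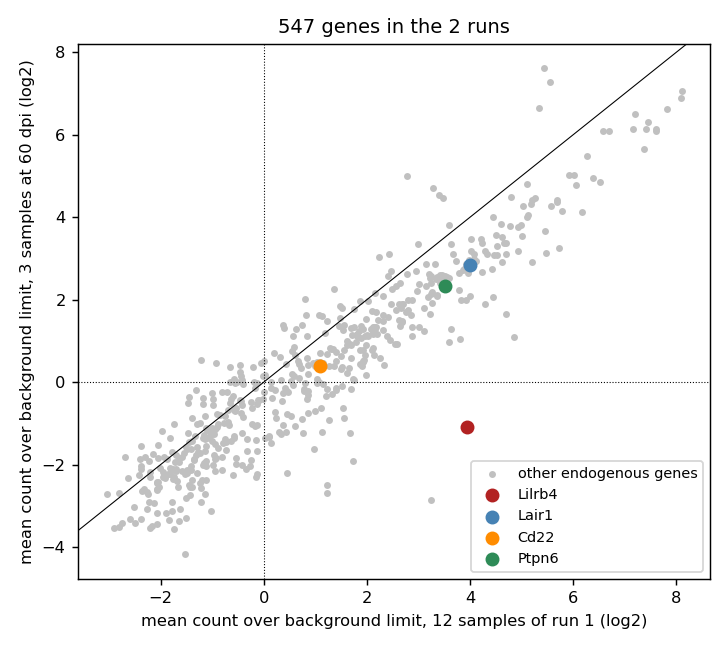
Each of 547 endogenous genes by its mean ratio of count to background limit in the 12 samples of the first run (horizontal, log2) and in the 3 samples at 60 dpi (vertical, log2), with dotted lines at the limit and a solid line of equal ratios. Lilrb4 stood at 15.4 times the limit in the first run and 0.468 times at 60 dpi, far under the line, while Lair1, Cd22 and Ptpn6 lay within the cloud of the other genes.

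Lair1, a receptor for collagens that also binds complement C1q, moved in the opposite direction to Lilrb4 at 2 and 14 dpi. At 60 dpi both were lower than sham. It had 491, 729, 630.1 and 472 normalized counts in sham, and 285, 372, 321 and 297 at 2 dpi. At 14 dpi the values were 455, 347, 382 and 324, and at 60 dpi they were 462, 427 and 315. Every injured sample lay under the lowest sham sample, and the injured groups overlapped each other.

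Lair1 averaged 319 ± 38.8 at 2 dpi, 377 ± 57.0 at 14 dpi and 401 ± 76.8 at 60 dpi, against 580 ± 121 in sham (SD, n = 4, 4, 3 and 4). It fell at 2 dpi by 0.86 on the log2 scale (SE 0.17, edgeR adjusted p = 0.00196), to 55.0% of sham. The difference from sham was -0.62 at 14 dpi (SE 0.17, edgeR adjusted p = 0.0121) and -0.53 at 60 dpi (SE 0.19, edgeR adjusted p = 0.0341). The 60 dpi result rested on single samples, since the edgeR adjusted p was 0.0983 without sham replicate 2, 0.0772 without sham replicate 3, 0.0566 without 60 dpi replicate 2 and 0.166 without 60 dpi replicate 3. At 14 dpi it was 0.0511 without 14 dpi replicate 4.

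Cd22, a sialic acid-binding lectin of the Siglec family best known from B cells, gave counts near its background in sham, at 2 dpi and at 60 dpi. It had 64.8, 32.8, 26.7 and 28.0 normalized counts in sham, where the second value was under that sample's limit. It had 35.3, 38.9, 40.2 and 25.8 at 2 dpi. At 14 dpi it had 97.3, 118, 110 and 108. The 14 dpi samples were all above every sham and 2 dpi sample and differed little from each other. At 60 dpi the values were 101, 57.3 and 70.4, all above background and all above 2 dpi, while the lowest lay under sham replicate 1. These 60 dpi counts were only 1.17 to 1.53 times their own limits, which were higher in that run. The counts were 1.12 to 1.97 times the limit at 2 dpi and 0.617 to 1.51 times in sham.

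Cd22 averaged 108 ± 8.43 at 14 dpi and 76.4 ± 22.7 at 60 dpi, against 38.1 ± 18.0 in sham (SD, n = 4, 3 and 4). It rose 2.99-fold at 14 dpi over sham (log2 fold change 1.58, SE 0.28, edgeR adjusted p = 0.000411) and 2.10-fold at 60 dpi (log2 fold change 1.07, SE 0.30, edgeR adjusted p = 0.00892). At 2 dpi it averaged 35.1 ± 6.51 (SD, n = 4), and the difference from sham was -0.04 with a 95% interval of -0.61 to 0.53 (edgeR adjusted p = 0.918). Because background takes a large share of such low counts, subtraction of the mean of the negative probes gave a larger difference at 14 dpi, 2.17 on the log2 scale (edgeR adjusted p = 0.000156), and 1.36 at 60 dpi (edgeR adjusted p = 0.00891). Without 60 dpi replicate 1 the 60 dpi difference was 0.81 and missed the threshold (edgeR adjusted p = 0.0674).

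Since Cd22 is a B cell gene, its level was set beside B cell markers. Of 8 B cell markers considered, Ms4a1, Cd79a, Pax5, Cr2, Tnfrsf13c and Btla were above background in 0 of the 15 samples. Cd79b was above it in 2 of 4 sham samples, 4 of 4 at 2 dpi, 1 of 4 at 14 dpi and 0 of 3 at 60 dpi, and Cd24a, which is not limited to B cells, averaged 61.5 at 2 dpi, 43.5 at 14 dpi and 75.4 at 60 dpi, against 30.2 in sham. It passed at 2 dpi (edgeR adjusted p = 0.0184, and 0.0639 without sham replicate 3), where Cd22 did not differ detectably, and at 60 dpi (edgeR adjusted p = 0.00435). The summed normalized counts of the 8 markers were 94.7 to 158 at 2 dpi, 90.4 to 172 at 14 dpi, where Cd22 was highest, 144 to 244 at 60 dpi and 64.0 to 170.1 in sham.

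Ptpn6, the phosphatase, had 304, 320, 332 and 304 normalized counts in sham and 233, 266, 217 and 225 at 2 dpi. At 14 dpi it had 352, 390.0, 437 and 300.3, and at 60 dpi it had 310, 285 and 267. All 2 dpi samples were under all sham samples, while the 14 and 60 dpi samples overlapped sham. In sham the 4 samples lay within a coefficient of variation of 4.34%, the smallest of any gene and group among the 4 genes.

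Ptpn6 averaged 235 ± 21.9 at 2 dpi, 370 ± 57.9 at 14 dpi and 287 ± 21.4 at 60 dpi, against 315 ± 13.7 in sham (SD, n = 4, 4, 3 and 4). It fell at 2 dpi by 0.42 on the log2 scale (SE 0.14, edgeR adjusted p = 0.0223), to 74.5% of sham. The difference from sham at 14 dpi was 0.23 with a 95% interval of -0.04 to 0.50 (edgeR adjusted p = 0.241), and at 60 dpi it was -0.13 with an interval of -0.42 to 0.16 (edgeR adjusted p = 0.514). The 2 dpi call depended on the scaling and on single samples. With trimmed mean of M values (TMM) factors, which take the bulk of genes as the base in place of housekeeping genes, the difference was -0.17 (edgeR adjusted p = 0.353), and without sham replicate 3 or 2 dpi replicate 1, 3 or 4 the edgeR adjusted p was 0.0581, 0.0549, 0.0723 and 0.0542.

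Markers of microglia and macrophages were also lower at 2 dpi, when Lair1 and Ptpn6 were. Of 10 such markers 7 passed as lower at 2 dpi than in sham, where 28.4% of all tested genes did. The count was 4 under TMM factors and 0 with positive-control factors alone. It was also 4 without sham replicate 2 or without 2 dpi replicate 1 or 3. Cx3cr1, the fractalkine receptor, averaged 3082 normalized counts at 2 dpi and 5724 in sham, and Csf1r, the receptor for the growth factor CSF1, averaged 5466 at 2 dpi and 8860 in sham. The part of this in the Lair1 and Ptpn6 levels was not tested.

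The housekeeping scaling placed the median tested gene at -0.31 at 2 dpi, 0.08 at 14 dpi and 0.12 at 60 dpi against sham on the log2 scale. Relative to that median, the 2 dpi difference from sham was 1.81 for Lilrb4, -0.56 for Lair1, 0.26 for Cd22 and -0.12 for Ptpn6. At 60 dpi the differences relative to the median were -0.65 for Lair1, 0.95 for Cd22 and -0.25 for Ptpn6. TMM factors, under which the median gene lay at -0.04 at 2 dpi, gave 1.74 for Lilrb4, -0.59 for Lair1 and 0.22 for Cd22 there, so the sign of the small Cd22 difference at 2 dpi turned with the scaling. Under TMM factors the called genes split 47 higher and 43 lower at 2 dpi, against 26 and 102 under the housekeeping scaling.

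**Figure D3:**
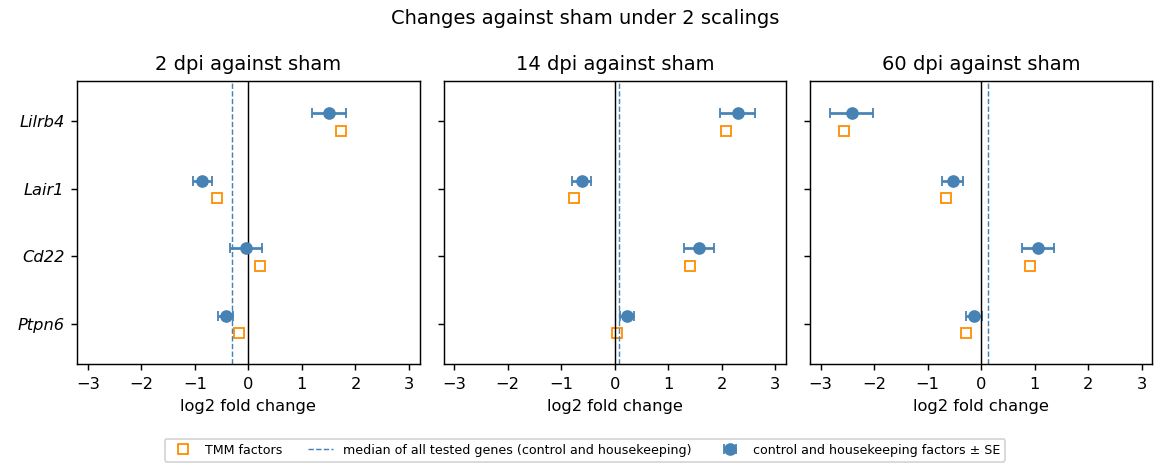
Log2 fold changes of the 4 genes against sham at 2, 14 and 60 dpi under the positive-control and housekeeping factors (filled circles, bars ± SE) and under TMM factors (open squares), with the median of the 359 tested genes under the first scaling as a dashed line. Lilrb4 lies right of 0 at 2 and 14 dpi and left at 60 dpi, where its counts were under background, and Lair1 lies left at all 3 times.

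The times were also set against each other. Between 14 and 2 dpi 3 of the 4 genes passed, all higher, where 42.3% of tested genes did, 39.6% higher and 2.79% lower. Their samples did not overlap for 2 genes, both higher, and for 36.8% of tested genes, 34.8% all higher and 1.95% all lower. Between 60 and 14 dpi 1 gene passed, Lilrb4, and it did not overlap, where 44.3% of tested genes passed, 22% higher and 22.3% lower, and 44.3% did not overlap, 23.1% all higher and 21.2% all lower. Between 60 and 2 dpi 2 passed (1 higher, 1 lower), where 56.5% did, 46.5% higher and 10% lower, and 3 did not overlap (2 higher, 1 lower), where 61.8% did not, 49.9% all higher and 12% all lower.

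In order of level Lilrb4 ran 14 dpi, 2 dpi, sham and 60 dpi, with a log2 difference of 0.80 between 14 and 2 dpi (SE 0.31, edgeR adjusted p = 0.0491). That step missed the threshold in 11 of the 15 fits that left out 1 sample (adjusted p up to 0.175) and was 0.33 under TMM factors (edgeR adjusted p = 0.477). Lair1 ran sham, 60 dpi, 14 dpi and 2 dpi, and none of its injured neighbours in that order differed beyond their spread, with 0.09 between 60 and 14 dpi (edgeR adjusted p = 0.764) and 0.24 between 14 and 2 dpi (edgeR adjusted p = 0.277). The sign of the difference between 14 and 2 dpi turned under TMM factors, to -0.18.

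Cd22 ran 14 dpi, 60 dpi, sham and 2 dpi. It was 3.08-fold higher at 14 than at 2 dpi (log2 1.62, SE 0.28, edgeR adjusted p = 0.000249), a difference that passed in all 15 fits that left out 1 sample, and 2.17-fold higher at 60 than at 2 dpi (log2 1.11, SE 0.29, edgeR adjusted p = 0.00426). With positive-control factors alone the 60 against 2 dpi difference was 0.58 and did not pass (edgeR adjusted p = 0.453). Between 60 and 14 dpi the difference was -0.51 with a 95% interval of -1.07 to 0.06 (edgeR adjusted p = 0.165). Ptpn6 ran 14 dpi, sham, 60 dpi and 2 dpi, and its highest and lowest levels differed by 0.65 between 14 and 2 dpi (SE 0.14, edgeR adjusted p = 0.00101), which was 0.22 under TMM factors (edgeR adjusted p = 0.250). Between 60 and 14 dpi it differed by -0.36 (edgeR adjusted p = 0.0525), which missed the threshold. That difference passed in 6 of 26 alternatives, among them housekeeping factors alone (edgeR adjusted p = 0.0464) and the fit without 14 dpi replicate 4 (-0.45, edgeR adjusted p = 0.0229). Between 60 and 2 dpi it differed by 0.29 (edgeR adjusted p = 0.0932), a sign that turned to -0.10 under TMM factors.

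Ratios between 2 genes within a sample do not depend on that sample's scaling, and only their shifts between groups can be read, since each probe binds with its own strength. The log2 ratio of Lilrb4 to Lair1 was -1.70, -2.18, -2.59 and -1.41 in sham, 0.73, 0.30, 0.30 and 0.24 at 2 dpi, and -0.34, 1.59, 1.10 and 1.09 at 14 dpi. All 8 samples at 2 and 14 dpi were therefore above all sham samples, and the lowest 14 dpi ratio belonged to replicate 1, which also had the lowest Lilrb4 and the highest Lair1 of its group. The log2 ratio of Lair1 to Cd22 was 1.56 to 2.22 at 14 dpi, against 2.92 to 4.56 in sham, with no overlap. That of Lair1 to Ptpn6 was 0.29 to 0.57 at 2 dpi, -0.19 to 0.37 at 14 dpi and 0.23 to 0.58 at 60 dpi, all under the 0.64 to 1.19 of sham. Lair1 was thus lower relative to Ptpn6 after injury in every sample, whichever scaling is used.

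**Figure D4:**
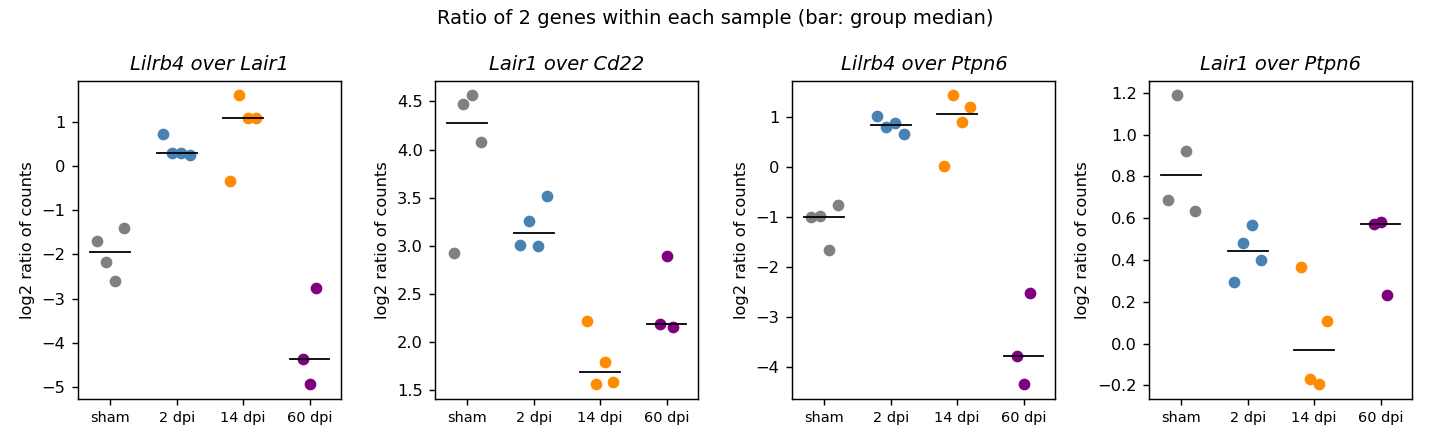
Log2 ratios of the counts of 2 genes within each sample by group, for Lilrb4 over Lair1, Lair1 over Cd22, Lilrb4 over Ptpn6 and Lair1 over Ptpn6, with each group's median as a bar. Lilrb4 over Lair1 is above all sham samples in the 8 samples at 2 and 14 dpi, and the Lilrb4 counts behind the 60 dpi points are under background.

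Over the 12 samples of the first run, the log2 levels of Lilrb4 and Lair1 were related with a Pearson r of -0.75 and those of Lilrb4 and Cd22 with 0.67, while Lilrb4 and Ptpn6 gave 0.16. These values describe samples that share their group, run and scaling. By the same measure the 3 genes most like Lilrb4 were Nfil3, Tlr2 and Mapkapk2 (r of 0.98, 0.97 and 0.94). The 60 dpi samples parted them, since Tlr2, a receptor for bacterial lipoproteins, averaged 426 normalized counts at 60 dpi and 375 in sham. Among those most like Lair1 were Gpr183 and Card9 (r of 0.97 and 0.96), both of which were lower at 2 and 14 dpi than in sham. Most like Cd22 were Ccl5, Relb and Crlf2 (r of 0.93, 0.91 and 0.91), and the T cell attractant Ccl5 averaged 216 at 14 dpi and 31.5 in sham. Most like Ptpn6 were Cd82, Fcgr3 and Irf8 (r of 0.95, 0.95 and 0.93).

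Of 11 other receptors on the panel with an ITIM or a related tyrosine motif, not all of them solely inhibitory, 7 were tested. Their median log2 fold change against sham was 0.12 at 2 dpi, 0.09 at 14 dpi and 0.32 at 60 dpi. At 2 dpi edgeR passed 0 of the 7 under the housekeeping scaling, with 2 at an unadjusted p under 0.05. It passed 1 higher with TMM factors and 1 higher after subtraction of the mean of the negative probes. DESeq2 passed 1 higher, both with its own size factors and under the housekeeping scaling, and limma passed 1 higher and 1 lower. At 14 dpi Pdcd1, the checkpoint receptor PD-1, passed with 50.5 normalized counts at 14 dpi and 20.7 in sham, where it was above background in 0 of 4 samples. At 60 dpi Pecam1 (log2 1.55), an adhesion receptor of endothelium and leukocytes, and Slamf7 (1.52), a receptor of the SLAM family, were higher. Slamf7 was near background, above it in 0 of 4 sham samples and in 2 of 3 samples at 60 dpi. Ceacam1, an adhesion receptor, passed with 34.3 normalized counts at 60 dpi and 58.7 in sham, but it was above background in 0 of the 3 samples at 60 dpi. That call was lost with positive-control factors alone, with only the 2 groups compared and in 4 of the 15 fits that left out 1 sample. Fcgr2b, the inhibitory Fc receptor, had a log2 difference from sham of -0.31, 0.19 and 0.26 at the 3 times and did not pass at any. Lilrb3, another member of the Lilrb family, averaged 61.0 at 2 dpi, 54.1 at 14 dpi and 57.9 at 60 dpi, against 53.0 in sham, and did not pass at any time.

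Of 7 other phosphatases and negative regulators of immune signalling, 6 were tested. Ptpn2, a phosphatase that acts on JAK and STAT proteins, was lower at 2 dpi (log2 -0.67) and higher at 14 dpi (0.62), and Tnfaip3, the ubiquitin-editing enzyme A20, was higher at 14 dpi (1.17). Neither Ptpn2 call held under TMM factors, with -0.40 at 2 dpi (edgeR adjusted p = 0.138) and 0.42 at 14 dpi (edgeR adjusted p = 0.0769). In the 15 fits that left out 1 sample Ptpn2 missed the threshold in 4 at 2 dpi and in 7 at 14 dpi, while Tnfaip3 at 14 dpi passed in all 15. At 60 dpi edgeR passed 0 of the 6 under the housekeeping scaling, with 2 at an unadjusted p under 0.05. It passed 1 lower with TMM factors and 1 lower after subtraction of the mean of the negative probes. DESeq2 passed 1 lower with its own size factors and 1 higher under the housekeeping scaling, and limma passed 1 lower. Ptprc, which encodes CD45, had a log2 difference from sham of -0.32, 0.23 and 0.04 and did not pass.

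Of 18 activating adaptors, receptors and proximal kinases that inhibitory receptors can oppose, 16 were tested. At 2 dpi 7 were lower, among them Card9 (log2 -0.75) and Blnk (-0.72), signalling proteins that act downstream of Syk. The lectin receptor Clec4e (2.19) was the 1 that was higher. Of all tested genes 28.4% were lower and 7.24% higher at that time. That count of 7 was 3 under TMM factors, and the list's median of -0.45 stood beside -0.31 for all tested genes. At 14 dpi Tyrobp was higher (0.48) and Card9 lower (-0.72), where 21.4% of all tested genes were higher and 4.18% lower. The Tyrobp call was lost under TMM factors (0.30, edgeR adjusted p = 0.0686), by limma and in 6 of the 15 fits that left out 1 sample. At 60 dpi Trem1 (2.22) and Tyrobp (0.45) were higher, where 25.3% of all tested genes were. Fcgr3 (-2.76), Fcgr4 (-0.82) and Fcgr1 (-0.73), all Fc receptors for IgG, were lower, where 11.1% of all tested genes were. The count of 3 lower was 7 under TMM factors. Tyrobp did not pass at 60 dpi under TMM factors (0.32, edgeR adjusted p = 0.0723), by limma or in 7 of the 15 fits that left out 1 sample, and Fcgr4 missed the threshold in 3 of them. Syk, the kinase itself, had log2 differences of -0.41, 0.27 and -0.00 and did not pass.

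Genes for reported ligands of these receptors gave 4 tested members. Fn1, which encodes fibronectin, reported to bind Lilrb4, was higher at 2 dpi (log2 1.15) and 60 dpi (1.01). The 2 dpi call was lost with positive-control factors alone, and the 60 dpi call was lost under TMM factors (0.87, edgeR adjusted p = 0.107), with positive-control factors alone, with no background filter and by limma. It also missed the threshold in 5 of the 15 fits that left out 1 sample, with 0.44 (edgeR adjusted p = 0.298) without 60 dpi replicate 3. C1qa and C1qb, subunits of the Lair1 ligand C1q, were lower at 2 dpi (-0.37 and -0.40), and C1qa was higher at 14 dpi (0.50). The 2 dpi calls of C1qa and C1qb were lost under TMM factors, and each missed the threshold in 3 of the 15 fits that left out 1 sample.

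Markers of other cell types moved with time as well. Of 8 monocyte markers tested, 5 were higher than sham at 2 dpi, 1 at 14 dpi and 7 at 60 dpi, where 7.24%, 21.4% and 25.3% of all tested genes were higher. The count at 2 dpi was 3 without 2 dpi replicate 1 and 2 with positive-control factors alone. At 14 dpi it was 0 without sham replicate 1 or without 14 dpi replicate 2, 3 or 4. At 60 dpi it was 3 by limma, 4 with positive-control factors alone or the stricter background filter, and 4 without sham replicate 1, 3 or 4 or without 60 dpi replicate 2 or 3. The summed normalized counts of the monocyte markers were 1296 to 1660 at 2 dpi, 663 to 1122 at 14 dpi and 1098 to 1673 at 60 dpi, against 568 to 793 in sham. Lilrb4 is also expressed by monocytes. It was higher than sham at 2 dpi, where 5 of the 8 markers passed as higher, and highest at 14 dpi, where 1, Cd44, did. The part of monocytes in the Lilrb4 level was not tested.

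The gate on high CD11b and low to intermediate CD45 would remove endothelial cells and most T cells, yet endothelial markers and the T cell marker Cd3d were higher at 60 dpi. All 4 tested endothelial markers passed as higher there (Icam2 not without 60 dpi replicate 3, edgeR adjusted p = 0.0512), where 25.3% of all tested genes did. Among them Cdh5, which encodes VE-cadherin, had 181 normalized counts at 60 dpi and 37.1 in sham. Cd3d, a chain of the T cell receptor complex, was higher by 1.94 on the log2 scale at 60 dpi than in sham (edgeR adjusted p = 0.000201). The T cell markers Cd247 (0.83, edgeR adjusted p = 0.139) and Cd28 (0.72, edgeR adjusted p = 0.147) did not pass. Cd3e, Cd8a, Cd8b1, Cd2, Lck and Zap70 were above background in no sample. Cd163, a scavenger receptor of macrophages at the borders of the brain, was higher by 1.93 at 60 dpi than in sham (edgeR adjusted p = 0.00112). Neutrophil markers summed to 9412 to 39949 at 60 dpi, against 1163 to 9149 in sham. Most of that sum was S100a8 and S100a9, which averaged 9999 ± 8566 and 7945 ± 7013 at 60 dpi (SD, n = 3). Neither passed against sham (edgeR adjusted p = 0.0679 and 0.121), nor did Camp (edgeR adjusted p = 0.141). Csf3r was lower by 0.43 and did not pass (edgeR adjusted p = 0.0810). Ltf passed (1.70, edgeR adjusted p = 0.0470), but it was above background in 1 of 3 samples at 60 dpi. The part of other cells in the levels of the 4 genes was not tested.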

How the data were processed

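The authors deposited raw nCounter counts, treated here as estimated counts per probe, and a table of normalized signal. Per the methods the authors normalized with NanoStringNorm, and all 8205 values of that signal were recovered from the counts within 0.001 by negative-control, positive-control and housekeeping steps. The files hold no genome coordinates or probe sequences.

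Raw counts of 547 endogenous genes were scaled by median-ratio factors of 6 positive controls and 14 housekeeping probes (0.509 to 1.87), without background subtraction. Genes above background in at least 3 of 15 samples (359) entered 1 edgeR 4.0.16 quasi-likelihood fit with group as the only term (R 4.3.3), and p-values were adjusted over all of them by the Benjamini-Hochberg method with a threshold of 0.05. The study used a negative binomial model of another package. Bounds at 60 dpi divide the mean of the other group by the mean of the higher of limit and level per sample. On simulated counts for 2 dpi against sham (359 genes), 41.8%, 88.1% and 97.0% of genes changed 1.5-, 2- and 4-fold were called, and 0.629% of unchanged genes. For 60 dpi against sham (359 genes) these shares were 38.8%, 82.1% and 97.0%, and 3.14% of unchanged genes. The simulation used the same scaling factors to make and to fit the counts and held no difference between runs. Errors of scaling and of run are therefore not in these shares.

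Alternatives were other scaling factors, DESeq2 1.42.0, limma 3.58.1 on the authors' values (log2 of value plus 1), other filters and background limits, fewer groups and leaving out each sample. The named genes were the 4 chosen, the 3 most correlated genes for each over the 12 samples of the first run, and on each list of related genes the called genes with the largest changes. Fcgr2b, Lilrb3, Ptprc and Syk, Fcgr1 and Tyrobp at 60 dpi, and T cell and neutrophil markers that did not pass fall outside this rule. They were named after their values were seen. Some genes that these rules select are not reported here. The members and lists were chosen with earlier results of these data known. Replicate numbers are in accession order. Columns of the files that the labels tie to no sample numbered 0.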

Additional observations from a re-analysis of the deposited data

Results flagged for a closer look

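Cd22 in sham replicate 1, at 64.8 normalized counts, stood apart from the other sham samples, with a gap to the nearest of 0.840 of the group's range, above Dixon's 95% critical value. About 1 in 20 groups passes that value by chance. Without this sample Cd22 was higher than sham by 1.91 at 14 dpi and 1.40 at 60 dpi on the log2 scale, and the small 2 dpi difference was 0.28.

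The time points differed from each other in edgeR's test of the difference itself for 3 genes. Lilrb4 (log2 0.80), Cd22 (1.62) and Ptpn6 (0.65) were higher at 14 dpi than at 2 dpi. Cd22 was higher at 60 dpi than at 2 dpi (1.11). The fitted Lilrb4 difference was -4.72 between 60 and 14 dpi and -3.92 between 60 and 2 dpi, values that rest on counts under background at 60 dpi and are not bounds.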

How the results depend on the processing

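Of the 12 differences from sham, Cd22 and Ptpn6 at 14 dpi and Lilrb4 and Ptpn6 at 60 dpi kept their direction and their side of the threshold under all alternatives run. With positive-control factors alone, which leave out the amount of RNA per sample, Lair1 was -0.70, -0.72 and -0.88 at 2, 14 and 60 dpi, Ptpn6 -0.31 at 2 dpi and Cd22 0.83 at 60 dpi and 0.58 at 60 against 2 dpi, and none passed. With TMM factors and with DESeq2's own size factors, Ptpn6 at 2 dpi was -0.17 and -0.15 and did not pass. Lilrb4 by limma on the authors' values was 1.49 and 2.30 at 2 and 14 dpi and did not pass, and Lair1 at 60 dpi did not pass by limma (-0.53) or with only the 2 groups compared (-0.53). Cd22 at 2 dpi turned to 0.22 with TMM factors, 0.25 with positive-control factors alone, 0.27 with DESeq2's own size factors, 0.23 after subtraction and 0.13 by limma. Differences between times that turned sign with TMM factors, positive-control factors alone and DESeq2's own size factors were Lair1 at 14 against 2 dpi (-0.18, -0.012 and -0.21), Lair1 at 60 against 2 dpi (-0.067, -0.18 and -0.12) and Ptpn6 at 60 against 2 dpi (-0.10, -0.19 and -0.16), and Lair1 at 60 against 14 dpi with positive-control factors alone (-0.16). The cause was not tested.

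Leaving out each sample gave -0.20 to 0.28 for Cd22 and -0.49 to -0.39 for Ptpn6 at 2 dpi, -0.73 to -0.49 for Lair1 at 14 dpi, -0.65 to -0.39 for Lair1 and 0.81 to 1.40 for Cd22 at 60 dpi, and -0.027 to 0.23 for Lair1 at 60 against 14 dpi.

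Called genes at 2 dpi against sham numbered 26 higher and 102 lower, 47 and 43 with TMM factors, 57 and 39 with DESeq2's own size factors and 19 and 1 with positive-control factors alone. At 14 dpi they were 77 and 15, 68 and 65 with TMM factors, 71 and 69 with DESeq2's own size factors and 20 and 0 with positive-control factors alone. At 60 dpi they were 91 and 40, 76 and 67 with TMM factors, 81 and 77 with DESeq2's own size factors, 45 and 19 with positive-control factors alone, 77 and 59 after subtraction and 74 and 54 by limma. Between 14 and 2 dpi 142 and 10 were called, and 44 and 23 with TMM factors. The counts on lists of related genes were recomputed after seeing the data. No paired analysis was possible because the labels give no replicate numbers shared by the groups. Low counts limit Cd22 in sham, at 2 dpi and at 60 dpi, and Lilrb4 at 60 dpi.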
